A study of Mus musculus with 13 samples.

Results

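Levels of 9 genes that encode regulators of projection neuron identity in the cerebral cortex were followed through neurons and sections of the mouse retrosplenial cortex: Fezf2, Bcl11b, Tbr1, Tle4, Sox5, Etv1, Pou3f1, Cux1 and Cux2. They were chosen by name, as the members of this group with a row in 1 of the deposited tables. The table of spots, with 32285 genes, held all 9 of them. From the table of single cells, with 15114 genes, 7 were used, and Pou3f1 and Cux2 were not analysed in cells here. The cells were 765 neurons from wild-type B6 mice, dissociated from the retrosplenial cortex, a midline cortical area, in 11 samples from 3 animals. Each cell's name gave its dissection level, anterior, medium or posterior. The sections were 2 cryosections of 10 µm from wild-type brain, called S4 and S8, with 1022 and 951 spots. No treatment was given, so the members were compared between clusters of cells, pairs of genes, dissection levels and zones of the sections.

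Cortical projection neurons are sorted by where their axons go. Subcerebral neurons of layer 5 send axons out of the cortex to brainstem and spinal cord, and corticothalamic neurons of layer 6 project to the thalamus. Intratelencephalic neurons project within the telencephalon, the part of the forebrain that holds the cortex. A small network of transcription factors sets these fates during development: Fezf2 and, with it, Bcl11b act in the subcerebral programme, Tbr1 acts in the corticothalamic programme and represses Fezf2, and the Cux genes mark neurons of the upper layers. Many of these genes remain on in the adult cortex, where they are used as markers of layer and projection class.

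The 250 bases upstream of a gene's annotated start are shown for the 5 members whose pairs passed the co-detection test described later. RefSeq's table for GRCm38.p6 gave 11 starts for 8 of the 9 members, and each sequence below reads 5′ to 3′ in the direction of the gene. Etv1 has a pair of starts in the table and the one at the lower coordinate is shown. Capitals mark a match to the SOX motif AACAAT or, on the other strand, ATTGTT.
Fezf2 (chr14:12345866-12346115, minus strand): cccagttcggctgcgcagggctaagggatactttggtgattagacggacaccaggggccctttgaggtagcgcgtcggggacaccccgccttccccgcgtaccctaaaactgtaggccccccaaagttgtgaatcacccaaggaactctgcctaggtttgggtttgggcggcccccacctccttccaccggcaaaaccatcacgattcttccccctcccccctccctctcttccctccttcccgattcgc
Bcl11b (chr12:108003415-108003664, minus strand): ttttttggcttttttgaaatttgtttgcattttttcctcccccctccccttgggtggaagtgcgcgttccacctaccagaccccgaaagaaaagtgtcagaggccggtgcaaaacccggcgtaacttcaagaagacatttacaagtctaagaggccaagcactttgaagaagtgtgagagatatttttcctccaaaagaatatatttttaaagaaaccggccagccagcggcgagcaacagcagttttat
Sox5 (chr6:143947107-143947356, minus strand): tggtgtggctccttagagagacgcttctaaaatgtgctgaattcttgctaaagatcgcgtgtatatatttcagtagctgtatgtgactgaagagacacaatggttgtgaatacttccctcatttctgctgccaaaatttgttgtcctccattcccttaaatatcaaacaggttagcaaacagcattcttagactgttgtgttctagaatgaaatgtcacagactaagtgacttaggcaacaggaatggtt
Etv1 (chr12:38779832-38780081, plus strand): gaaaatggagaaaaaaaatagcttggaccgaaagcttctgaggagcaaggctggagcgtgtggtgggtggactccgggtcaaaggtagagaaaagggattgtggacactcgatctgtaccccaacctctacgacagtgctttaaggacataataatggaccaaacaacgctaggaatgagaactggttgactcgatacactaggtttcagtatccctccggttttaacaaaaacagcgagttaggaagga
Tbr1 (chr2:61804203-61804452, plus strand): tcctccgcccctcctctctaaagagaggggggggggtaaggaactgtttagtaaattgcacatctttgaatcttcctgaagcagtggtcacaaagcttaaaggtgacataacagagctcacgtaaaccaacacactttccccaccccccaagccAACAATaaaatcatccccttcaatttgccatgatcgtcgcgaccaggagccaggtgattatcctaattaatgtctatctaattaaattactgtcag
Motifs of the members' own factor families were searched on both strands in these 250 bases. The SOX motif lay in 3 of the 11 promoters, against 9.42% of 32851 RefSeq promoters. They were those of Tbr1, of Tle4 at only 1 of its starts and of Etv1 at its other start. In Tbr1 it began 96 bases before the start. The CUX motif ATCGAT, which is its own reverse complement, lay in 1 of the 11, a promoter of Cux2, against 0.728% of all promoters. The T-box motif GGTGTGA, held by 3.33% of promoters, the octamer ATGCAAAT of POU factors, held by 1.60%, and the ETS motif CCGGAA, held by 12.03%, were in 0 of the 11. No promoter held more than 1 match, so no matches overlapped. A match of letters is a description of the sequence and not a binding site.

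The cells matched their label. Slc17a7, a transporter gene of excitatory neurons, had a count in 98.8% of cells, while Gad1 of inhibitory neurons had a count in 6.01% and reached 10 counts in 0 cells. Samples held 2306470 to 15974543 counts, and the median cell of animals 1, 2 and 3 held 65843, 132797 and 185995 counts. No cell name and no set of counts occurred in more than 1 sample. The sections shared 162 spot barcodes, which name positions on a slide, and no spots had equal counts. The labels do not say whether samples of an animal came from separate dissociations, so the spread between samples may be technical.

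All 7 members measured in cells were found in every sample. Fezf2 ran from 41.0 to 131 CPM (a gene's counts scaled to a common library total) over the 11 samples, with a median of 90.0 CPM. Bcl11b ran from 87.6 to 224 CPM around a median of 140.5 CPM. Both genes were highest in sample 1 of animal 1, and by animal Bcl11b stood at 170.1, 155 and 102 CPM and Fezf2 at 104, 103 and 71.9 CPM, so animal 3 was lowest for each. Tbr1 ran from 25.6 to 72.6 CPM with a median of 49.4 CPM, and Tle4 from 15.2 to 43.1 CPM with a median of 33.3 CPM. Sox5 ran from 30.3 to 63.6 CPM around 45.8 CPM, and Etv1 from 107 to 191 CPM around 161 CPM. Cux1 ran from 22.5 to 59.2 CPM around 36.1 CPM. The highest sample of Cux1, sample 17, and that of Tle4, sample 18, were both from animal 3. These values are CPM of summed counts, not divided by gene length, so they compare samples and not genes.

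To compare cells at equal depth, each cell was thinned to 54512 counts, which kept 688 cells and left out 77. The loss fell mostly on animal 1, the shallowest, which kept 34 of 45 anterior, 7 of 35 medium and 56 of 72 posterior cells. Animals 2 and 3 kept 86 of 89 and 89 of 93 medium cells. Thinned values of animal 1 therefore rest on its deeper cells. In thinned cells Etv1 was detected in 60.3%, Fezf2 in 48.3%, Tbr1 in 43.5%, Sox5 in 41.4%, Bcl11b in 38.1%, Cux1 in 37.1% and Tle4 in 33.3%. Without thinning the shares over all 765 cells were 60.5%, 50.6%, 50.1%, 47.1%, 41.3%, 42.5% and 38.3% in the same order. Most cells therefore carried several members. Of the 688 thinned cells, 172 had 3 members, 157 had 2, 146 had 4 and 17 had 0, and 0 cells had all 7.

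Cells were grouped into 11 clusters without using the members, and 9 clusters with enough cells in at least 2 animals were tested. Of the clusters tested, 4 could be named because all of the markers of a class that the table held led there. A marker led where it was raised over the other clusters on a log scale, not only where it was highest. Parm1, a layer 5 extratelencephalic marker, also led in clusters 2 and 6. It averaged 661 CPM in cluster 2, against 413 and 434 CPM in clusters 3 and 7. Among tested clusters Crym, a layer 6 corticothalamic marker, also led in 3, 6 and 7. It averaged 847 and 437 CPM in clusters 3 and 7, against 404 CPM in cluster 5. Clusters 3 and 7, of 76 and 65 cells, were layer 5 extratelencephalic-like (Parm1, Chst8, Fam84b and Npr3 led). Cluster 4, of 74 cells, was layer 6 intratelencephalic-like (Osr1, Oprk1, Car12 and Penk). Cluster 5, of 71 cells, was layer 6 corticothalamic-like (Foxp2, Syt6, Rprm and Crym). Others are given by their leading genes: cluster 1 (203 cells) by Otof, Agmat and Ngb, cluster 2 (122) by Tnnc2, Grik1 and Eps8l2, cluster 6 (70) by Ido1, Nxph2 and Susd5, cluster 8 (38) by Sncaip, Fam181b and Bend7, and cluster 9 (24) by BC006965, Gpr115 and Tnni1.

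The level in a cluster was set against the log-scale mean over the remaining clusters by edgeR's quasi-likelihood test on counts summed per animal. A gene was called at an adjusted p under 0.05 over all genes and a log2 fold change of at least 1 in size. Of 63 combinations of member and cluster, 31 were called, 22 higher and 9 lower, against 3.69% of the combinations of all 13137 genes. All 7 members were called in at least 1 cluster, as were 17.8% of all genes. In clusters 1 to 9 in turn, the share of all genes called higher was 3.34%, 4.93%, 1.69%, 3.17%, 2.90%, 1.72%, 2.66%, 1.69% and 1.05%. The share called lower was 0.571%, 2.06%, 0.799%, 1.19%, 1.93%, 0.449%, 1.07%, 1.61% and 0.403%. The clusters were drawn from other genes of the same cells, so the test shows how regularly a difference recurred between animals and is no independent evidence for the clusters. Levels for each animal are in the plot of members by cluster.

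**Figure D1:**
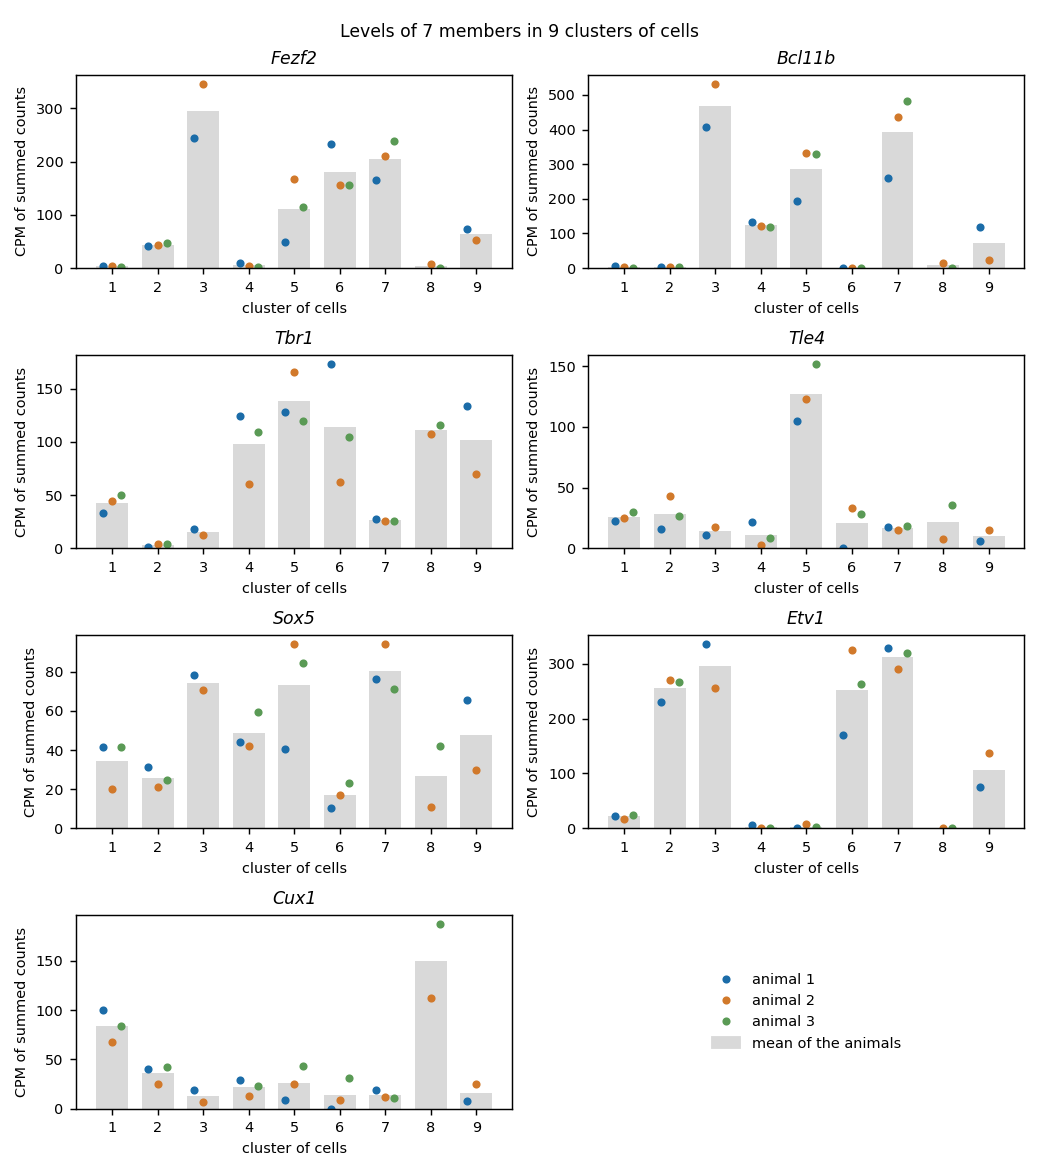
CPM of summed counts (vertical axis, linear) of 7 members in 9 clusters of cells (horizontal axis). Points are animals, with TMM-scaled library sizes, and grey bars are the mean of the 2 or 3 animals. Tle4 stands out in cluster 5 at 105 to 152 CPM, Cux1 in clusters 8 and 1, and Bcl11b is at or near 0 in cluster 6 while Fezf2 there is at 155 to 233 CPM.

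Fezf2, a zinc-finger factor needed to form subcerebral neurons, was at 244 and 346 CPM in cluster 3 in animals 1 and 2, the animals with enough cells there. In cluster 7 it was at 165, 210.2 and 238 CPM in animals 1, 2 and 3, and in cluster 6 at 233, 156 and 155 CPM. The ranges of clusters 6 and 7 overlapped, and cluster 6 had 5 cells in animal 1. All 3 clusters were called higher, with log2 fold changes of 3.27 (SE 0.33), 2.78 (SE 0.28) and 2.54 (SE 0.30) and edgeR adjusted p of 1.96e-06, 1.52e-06 and 2.19e-05. Cluster 5 followed at 49.1, 168 and 115 CPM and was also called higher (1.80, SE 0.31, edgeR adjusted p = 0.000513). Its mean of 111 CPM was close to the mean of the other clusters, since the fit averages clusters on a log scale, where low clusters weigh more. Clusters 9 and 2 lay in between, at 63.2 ± 15.2 (SD, n = 2) and 43.8 ± 2.80 CPM (SD, n = 3), and were not called.

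Fezf2 was low in the remaining clusters. It was at 2.80 to 4.54 CPM in cluster 1 (-3.97, SE 0.49, edgeR adjusted p = 1.64e-05), at 2.13 to 10.3 CPM in cluster 4 and at 0 and 6.87 CPM in cluster 8, and these 3 levels overlapped. In thinned cells the share with Fezf2 ran from 98.6% in cluster 3 and 98.4% in cluster 7 to 5.32% in cluster 1 and 3.33% in cluster 8. Without animal 2 the calls in clusters 1 and 4 were lost (log2 fold changes -3.03 and -2.56, edgeR adjusted p = 1 for both), and without animal 3 the call in cluster 8 was lost (-2.97, adjusted p = 0.0614).

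Bcl11b encodes CTIP2, a zinc-finger factor of corticospinal axon growth. It was at 406 and 532 CPM in cluster 3, at 259, 435 and 482 CPM in cluster 7 and at 195, 332 and 329 CPM in cluster 5, and the ranges of clusters 3 and 7 and of clusters 5 and 7 overlapped. Cluster 4 came next, with 134, 121 and 119 CPM, below every animal of cluster 5. Cluster 6 held 1 count of Bcl11b in its 70 cells, or 0, 0 and 0.140 CPM. So Fezf2 was detected in 87.3% and Bcl11b in 0% of the thinned cells of cluster 6. In cluster 4 the order was the other way, with Bcl11b in 65.6% and Fezf2 in 12.5% of cells.

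Clusters 3, 4, 5 and 7 were called higher and cluster 6 lower for Bcl11b, with edgeR adjusted p from 7.23e-08 in cluster 7 to 0.000162 in cluster 6. Fold changes of Bcl11b are not given, because 1 cluster with 1 count makes them depend on the prior count of the fit. In cluster 4 the mean of 124 CPM was below the 154 CPM mean of the other clusters, so that call rests on the log scale. Clusters 1, 2 and 8 were at 16.02 CPM or less in every animal and were not called, and cluster 9 was at 119 and 23.4 CPM. The call in cluster 6 was lost without animal 2 (edgeR adjusted p = 1).

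Tbr1, a T-box factor of corticothalamic neurons, had a broader pattern. Among the tested clusters it was highest on average in cluster 5, at 128, 166 and 119.9 CPM. Clusters 6, 8, 9 and 4 followed with means of 113, 112, 102 and 97.9 CPM, and their ranges overlapped with each other. These 5 clusters were called higher, with log2 fold changes from 1.17 in cluster 4 to 1.80 in cluster 5 (SE 0.25, edgeR adjusted p = 5.46e-05). Cluster 1 (42.5 ± 8.51 CPM, SD, n = 3) and cluster 7 (26.5 ± 1.000 CPM, SD, n = 3) were not called. Tbr1 was lower in cluster 3, at 18.3 and 12.6 CPM (-1.78, SE 0.41, adjusted p = 0.0151), and lower in cluster 2.

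In cluster 2 Tbr1 was at 0.846, 3.93 and 3.81 CPM, below all animals of the other clusters (-4.28, SE 0.41, edgeR adjusted p = 1.76e-07), and was detected in 3.48% of thinned cells. The oligodendrocyte markers Mog and Mobp together were at 4.97 to 42.0 CPM in cluster 2 and at 0 to 111 CPM in the other clusters tested, and their part in these differences was not tested. The cluster 5 and cluster 2 calls of Tbr1 held without each animal in turn. Those in clusters 3 and 9 were lost without any 1 of the 3 animals, with log2 fold changes of -1.55 to -1.91 and of 0.90 to 1.63. The call in cluster 4 was lost without animal 3 (1.08), that in cluster 6 without animal 1 or 3 (1.05 and 1.39) and that in cluster 8 without animal 2 or 3 (1.36 and 1.56).

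Tle4, a Groucho-family co-repressor found in corticothalamic neurons, was called in a single cluster. It was at 105, 123.2 and 152 CPM in cluster 5, and every animal of every other tested cluster was at 43.4 CPM or below. The log2 fold change was 2.83 (SE 0.41, edgeR adjusted p = 8.77e-05), and no other cluster was called. Cells with Tle4 were still found elsewhere, in 27.7% of the thinned cells of cluster 1 and 33.9% of cluster 2, against 88.9% in cluster 5.

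Sox5, an HMG-box factor of corticofugal neurons, differed less between clusters. It was at 76.1, 94.0 and 71.4 CPM in cluster 7, at 78.3 and 70.5 CPM in cluster 3 and at 40.3, 94.2 and 84.5 CPM in cluster 5, and these ranges overlapped. Cluster 7 was called higher (1.08, SE 0.29, edgeR adjusted p = 0.0294). Cluster 3 (1.05, edgeR adjusted p = 0.141), cluster 5 (0.93, adjusted p = 0.0690) and cluster 6 (-1.38, adjusted p = 0.0534) did not pass the test. Cluster 6 had the lowest mean, 16.99 ± 6.30 CPM (SD, n = 3). The call in cluster 7 was lost without any 1 of animals 1, 2 and 3, with log2 fold changes of 1.17, 0.71 and 1.38.

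Etv1, an ETS factor also known as ER81 and used as a layer 5 marker, was high in some clusters and nearly absent from others. It was at 328, 291 and 319 CPM in cluster 7, at 336 and 256 CPM in cluster 3, at 229.7, 271 and 266 CPM in cluster 2 and at 169.6, 325 and 263 CPM in cluster 6, and only clusters 2 and 7 among these did not overlap. Cluster 9 was at 75.0 and 137 CPM and cluster 1 at 16.7 to 25.01 CPM. In clusters 4, 5 and 8 every animal was at 7.16 CPM or less. Clusters 2, 3, 6, 7 and 9 were called higher (edgeR adjusted p from 2.48e-08 to 0.00620) and clusters 4, 5 and 8 lower (7.08e-06 to 0.000266).

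Folds of Etv1 are not given, since cluster 8 held 3 counts. The mean of cluster 9, 106 CPM, was below the 143 CPM mean of the other clusters, and its call was lost without animal 2 (edgeR adjusted p = 0.445). The call in cluster 5 was lost without animal 3 (adjusted p = 0.0570). Etv1 was detected in at least 96.8% of the thinned cells of each of clusters 2, 3, 6 and 7 and in 0% of those of cluster 4.

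Cux1, a homeobox factor of upper-layer neurons, was highest in cluster 8 at 113 and 187 CPM and next in cluster 1 at 99.9, 68.1 and 84.3 CPM, and the lowest animal of cluster 8 was above the highest of cluster 1. Both were called higher, by 2.62 (SE 0.44, edgeR adjusted p = 0.00111) and 1.75 (SE 0.38, adjusted p = 0.00564) on the log2 scale. Every animal of every other tested cluster was at 43.5 CPM or less. The call in cluster 1 was lost without animal 2 (1.85, adjusted p = 0.0720), and that in cluster 8 without animal 2 or 3 (2.77 and 2.61). Cux1 was detected in 20.8% to 40.9% of thinned cells in the clusters that were not called.

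A pair of small clusters stood outside the fit and is given without a test. Cluster 10, of 11 cells, was layer 6b-like (Ctgf, Nxph4, Cplx3 and Moxd1 led), and 11 of its 11 cells had a count of Tbr1 and of Tle4, at 160.0 and 104 CPM. Cluster 11, of 11 cells and unnamed, had Tle4 at 244 CPM with Etv1 at 418 CPM and Bcl11b at 235 CPM.

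Other genes of the network were read in the same fit, from lists written with results of these data known. Of 26 other regulators of projection neuron identity, 22 had enough counts for the fit. Calls fell on 15 of them, where 17.8% of all genes were called in at least 1 cluster. Over 198 combinations of these genes and clusters, 26 calls were higher and 16 lower, against 3.69% called over all genes. Cluster 5 was higher in Foxp2 (44.1 against 0.756 CPM in the other clusters), Nfia, Nfib, Neurod6 and Nr4a2, and the genes lower there included Lhx2, Mef2c and Tle3. Cluster 1 was higher in Bhlhe22, Id2, Lhx2, Lmo4 and Tle3. Cluster 2, with little Tbr1, was also lower in Neurod6 (7.30 against 184 CPM) and Id2 (26.7 against 668 CPM).

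Of 11 genes linked to subcerebral neurons, 6 were called higher and 0 lower in cluster 3, and 8 higher and 1 lower in cluster 7. Of all genes, 1.69% and 2.66% were called higher in these clusters and 0.799% and 1.07% lower. The median log2 fold changes of the list were 2.50 and 2.52, against 0.10 and 0.09 over all genes. The list was also raised in cluster 5, the layer 6 corticothalamic-like one, with a median of 2.03 against 0.01. There Crym, Ephb1, Igfbp4 and Pcp4 were called higher and Chst8 lower, where 2.90% and 1.93% of all genes were. A raised list was therefore not particular to clusters 3 and 7. Crym, a thyroid hormone binding protein, was at 847 CPM in cluster 3 against 145 CPM, and Crim1 and Cntn6 were higher in clusters 3 and 7. Parm1, Chst8 and Npr3 are also among the markers that named clusters 3 and 7, and Crym among those that named cluster 5. They are no separate evidence. In cluster 8 none was called higher and 4 were called lower, namely Ephb1, Igfbp4, Parm1 and Pcp4. Cluster 6, with Fezf2 but hardly any Bcl11b, was called higher in S100a10 (335 against 45.7 CPM) and lower in Igfbp4 (10.6 against 205 CPM). Crym and Pcp4 were also called higher there, but their means of 195 and 508 CPM stood beside 227 and 502 CPM in the other clusters, so those calls rest on the log scale.

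For each member the genes most like it were ranked by Pearson's r of log2(CPM + 1) over the 24 sums of animal and cluster, as a description. They share library depth and animals. For Fezf2 they were Pfn2 (0.91), Galnt9 and Gng12, for Bcl11b Lmo3 (0.93), Spon1 and P4ha2, and for Tbr1 Fam163b (0.88), Cd34 and Neurod6. Genes most like Etv1 included Sorl1 (0.91) and Fstl5, and Cux1 was most like AI836003 (0.84), Add2 and Bcl7b, Sox5 most like Prkce (0.81), Lmo3 and Igfbp4, and Tle4 most like Mcmbp (0.78), Clk3 and Ncoa1. Among the members themselves, r was 0.78 for Bcl11b and Sox5, 0.68 for Fezf2 and Etv1, 0.37 for Fezf2 and Bcl11b, -0.57 for Tbr1 and Etv1 and -0.66 for Fezf2 and Cux1.

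Which members occurred in the same cells was then tested pair by pair. In each sample the share of thinned cells with both genes was set against the product of their separate shares, and the difference is called the co-detection excess. Its mean over the 11 samples was tested against 0 by a two-sided exact sign-flip permutation test. The p-values were adjusted over all combinations of a member with a gene found in at least 5% of cells. Of 21 pairs of members, 4 passed, all at 0.000977, the smallest p that 11 samples allow, with an adjusted p of 0.0495. Samples of an animal share that animal, so these are not 11 independent animals.

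Fezf2 and Bcl11b were found together in 188 cells, where 132 were expected from their shares. The excess was 8.33 ± 2.88 percentage points (SD, n = 11 samples) and was above 0 in 11 of 11 samples, from 3.78 in sample 17 to 14.8 in sample 2, with a median of 8.13. By animal it was 10.0, 9.22 and 6.17 points. Most double-positive cells were in clusters 3 (70 cells), 7 (62) and 5 (32). Cells with Fezf2 alone were 144, mostly of clusters 2 (62) and 6 (55), and cells with Bcl11b alone were 74, of which 37 were in cluster 4.

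Fezf2 and Etv1 were together in 277 cells against 203 expected, an excess of 10.2 ± 2.62 points (SD, n = 11) that ran from 6.81 to 14.1 points over samples. Cells with Fezf2 and no Etv1 were few, 55, of which 34 were in cluster 5. Bcl11b and Sox5 were together in 160 cells against 112 expected (6.97 ± 2.33 points, SD, n = 11, from 3.03 to 10.5 points). All 11 samples were above 0 for both pairs. Of all 11228 genes compared with it, 1.96% passed above expectation for Fezf2, 1.52% for Bcl11b, 0.428% for Sox5 and 4.38% for Etv1.

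Tbr1 and Etv1 were the pair called below expectation. They were together in 130 cells where 178 were expected, an excess of -7.06 ± 2.33 points (SD, n = 11), and 0 of 11 samples were above 0, with a range from -11.4 in sample 11 to -3.78 in sample 17. Of all genes, 1.19% passed below expectation with Tbr1 and 0.802% with Etv1. Exclusion was not complete: 41 cells with both were in cluster 6, 26 in cluster 1 and 24 in cluster 7. Cells with Etv1 alone numbered 285, of which 110 were in cluster 2, and cells with Tbr1 alone 169.

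The pairs of Cux1 with Bcl11b (61 cells against 91.8 expected, permutation adjusted p = 0.0624), with Etv1 (135 against 154, adjusted p = 0.0869) and with Fezf2 (90 against 119, adjusted p = 0.0987) were below expectation in 10 of 11 samples each and did not pass. Fezf2 and Tbr1, in 130 cells against 142 expected, did not pass either (exact permutation p = 0.0254, adjusted p = 0.221). Tle4 gave no pair that passed, and its adjusted p with Bcl11b was 0.209 and with Fezf2 0.364. The plot of co-detection shows all pairs.

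**Figure D2:**
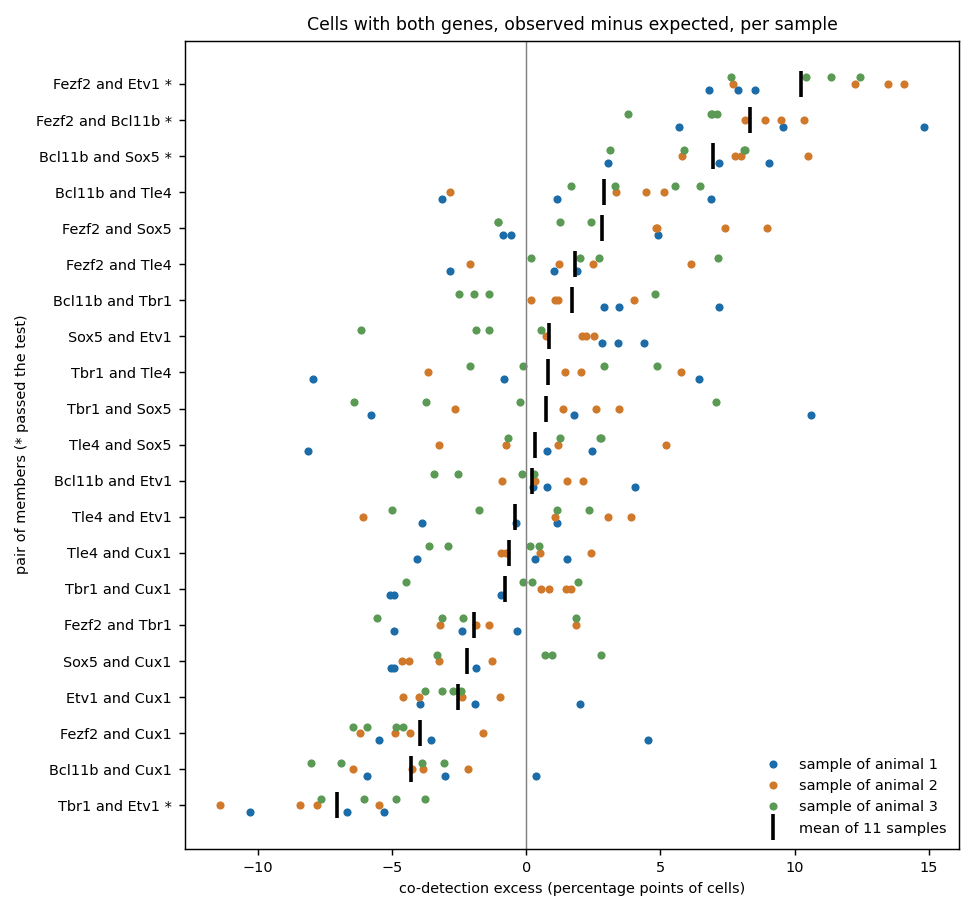
Co-detection excess in percentage points of thinned cells (horizontal axis) for 21 pairs of members (vertical axis, ordered by mean, with an asterisk where the pair passed). Points are samples coloured by animal and black ticks are means of 11 samples. Fezf2 and Etv1, Fezf2 and Bcl11b, and Bcl11b and Sox5 are above 0 in every sample, and Tbr1 and Etv1 below 0 in every sample.

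An expectation taken within clusters came close to the numbers observed, but it cannot show whether an excess exists there. Groups of sample and cluster were small, and a group of a single cell has an expectation equal to its count. Fezf2 was in 98.6% and 98.4% of the thinned cells of clusters 3 and 7. Bcl11b was in 97.2% and 100% of them, which leaves little room for an excess. When the expectation was taken within each sample and cluster, it was 188 cells for Fezf2 and Bcl11b (observed 188), 274 for Fezf2 and Etv1 (observed 277), 161 for Bcl11b and Sox5 (observed 160) and 136.5 for Tbr1 and Etv1 (observed 130). Taken within dissection levels, the excess was 7.66, 9.14, 6.93 and -6.14 points for the 4 pairs in the order described. None of the 4 then passed (permutation adjusted p = 0.0569). With detection set at 3 or more counts, all 11 samples kept, none of the 4 passed either (permutation adjusted p from 0.0559 to 0.0712), and the excess of Tbr1 and Etv1 was -4.73 points. Leaving out any 1 sample or animal also ended all 4 calls, where the smallest p allowed is larger, while the sign stayed.

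Dissection level was compared on counts summed per animal and level, in which fewer cells of a type and less RNA per cell cannot be told apart. Fezf2 was at 168, 174 and 114 CPM in posterior cells of animals 1, 2 and 3, at 37.3, 77.9 and 36.0 CPM in anterior and at 66.0, 78.1 and 72.0 CPM in medium cells. Bcl11b was at 265, 260.0 and 194 CPM in posterior, 56.9, 124 and 59.2 CPM in anterior and 116, 113 and 54.1 CPM in medium cells. For both genes every posterior value was above every anterior and medium value.

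The edgeR test without the animal as a term called 0 of the 7 members between posterior and anterior, as it called 0.00734% of 13628 genes, a single gene. Fezf2 had a log2 fold change of 1.58 (SE 0.29, adjusted p = 0.112) and Bcl11b of 1.57 (SE 0.33, adjusted p = 0.268). The levels of an animal are paired, and with the animal as a replicate block both genes rose toward posterior: Fezf2 by 1.63 (SE 0.24, edgeR adjusted p = 0.0437) and Bcl11b by 1.63 (SE 0.24, adjusted p = 0.0493). That fit called 0.103% of all genes, 14 in number. DESeq2 without a block also called both (adjusted p = 0.000188 and 0.00190) among 56 genes, or 0.411%. At an unadjusted p under 0.05 the unblocked edgeR fit held 594 genes, 5 members among them.

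Etv1 was at 286, 163 and 200.3 CPM in posterior and 73.4, 160.1 and 97.5 CPM in anterior cells, so the groups did not overlap but animal 2 hardly differed (0.96, SE 0.28, edgeR adjusted p = 0.607). Tle4 had 14.4, 19.0 and 26.5 CPM in posterior against 26.3, 34.6 and 37.6 CPM in anterior cells, and Cux1 24.5, 28.0 and 39.7 against 54.6, 31.3 and 62.1 CPM. Both were lower in posterior cells in 3 of 3 animals and did not pass (edgeR adjusted p = 1.000 for each). Tbr1 was also lower in 3 of 3 animals (-0.33, SE 0.25), and Sox5 was higher in 2 of 3 (0.29, SE 0.24). Between medium and anterior cells 0 members were called, against 0.00734% of genes, also with the replicate block and by DESeq2. No member there had an unadjusted p under 0.05, and 449 genes did. The subcerebral list had a median log2 fold change of 0.81 between posterior and anterior cells, against 0.01 over all genes, with 0 of 11 called.

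**Figure D3:**
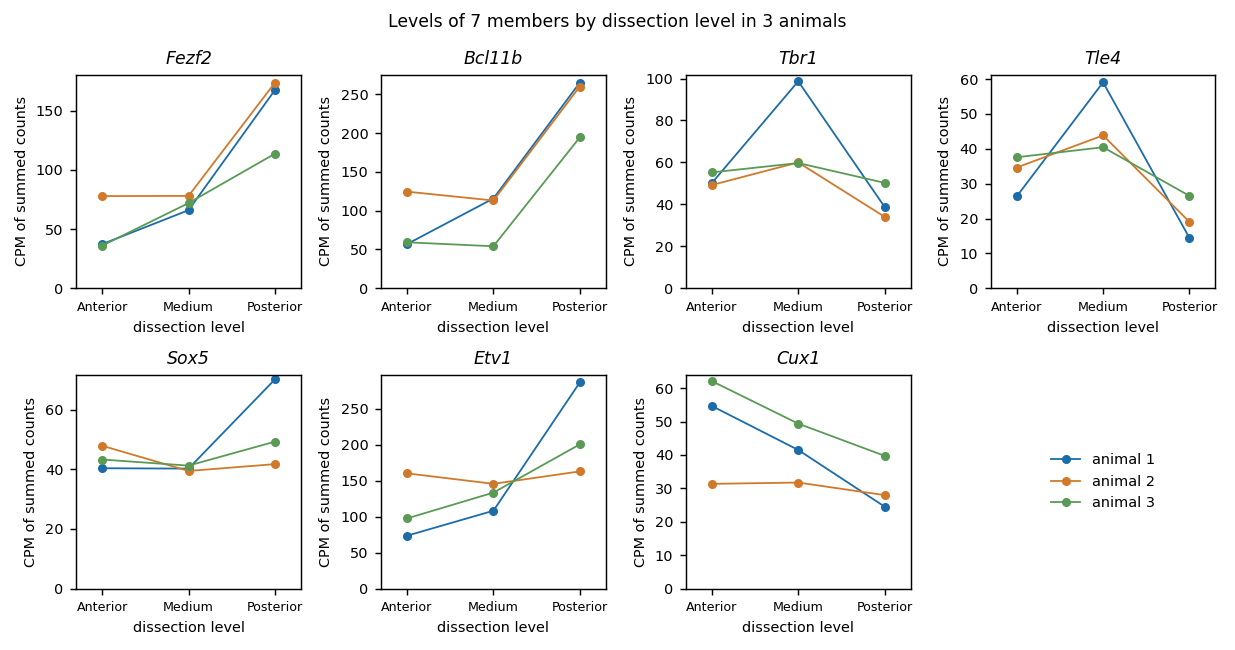
CPM of summed counts (vertical axis, linear, from 0) of 7 members at 3 dissection levels (horizontal axis), with 1 line per animal. Fezf2 and Bcl11b are highest in posterior cells in all 3 animals, at 114 to 174 and 194 to 265 CPM, while Tle4 and Tbr1 are lowest there.

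The clusters were spread unequally over the levels. Clusters 3 and 7 together, a grouping made after seeing the values, held 51.4%, 38.5% and 22.5% of the posterior cells of animals 1, 2 and 3, against 4.44%, 12.3% and 3.81% of the anterior cells. Animals 1 and 2 had 33 and 41 posterior cells in cluster 3 and 4 and 1 in cluster 7, while animal 3 had 2 in cluster 3 and 23 in cluster 7. All 76 cells of cluster 3 were posterior. Cluster 5, the tested cluster with the highest mean of Tle4, held 0%, 1.83% and 4.50% of posterior cells and 13.3%, 10.4% and 9.52% of anterior cells. In a fit with cluster and animal as terms, the posterior minus anterior difference was -0.25 for Fezf2 (SE 0.37), 0.43 for Bcl11b (SE 0.38) and -0.11 for Etv1 (SE 0.32). The edgeR adjusted p was 0.997 for each, and the differences of Fezf2 and Etv1 were smaller in size than their SE. Cluster 3, with posterior cells only, gave no comparison between levels in that fit.

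All 9 members could be read in the sections, where a spot can hold several cells. In S4 and S8, Tbr1 had a count in 61.4% and 46.0% of spots, Etv1 in 51.4% and 45.5%, Bcl11b in 36.4% and 33.3%, Cux1 in 33.8% and 26.0% and Tle4 in 30.5% and 26.2%. Cux2 had a count in 22.0% and 24.7% of spots, Fezf2 in 23.5% and 22.8%, Pou3f1 in 21.0% and 17.9% and Sox5 in 17.03% and 14.8%. Spots were shallow, with medians of 8266 and 6705 counts, and the highest count of Sox5 in any spot was 2.

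Spots were grouped into zones with each gene centred within its section and without the members, and 9 zones with enough spots in both sections were tested by edgeR with the section as a block. Of 81 combinations of member and zone, 26 were called, 13 higher and 13 lower, against 2.27% of the combinations of all 10481 genes. In at least 1 zone 8 of the 9 members were called, against 13% of genes, and the exception was Sox5. In zones 1 to 9 in turn, 1.22%, 2.32%, 1.11%, 0.887%, 1.56%, 0.363%, 1.26%, 3.22% and 0.0572% of all genes were called higher, and 1.19%, 2.76%, 1.07%, 0.630%, 1.56%, 0.210%, 0.611%, 0.391% and 0.00% lower. Only 2 sections were measured and zones were drawn from the same spots, so the test speaks of the repeat between these sections.

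Zone 1, led by Prph, Tshz2 and Cbln1, was higher in 3 members. Etv1 was at 302 CPM in S4 and at 288 CPM in S8, where the other zones had 121 and 101 CPM (1.63 on the log2 scale, SE 0.12, adjusted p by edgeR = 4.58e-16). Pou3f1, a POU factor of subcerebral neurons, was at 83.6 and 69.5 against 27.3 and 27.1 CPM (1.60, SE 0.19, adjusted p = 4.34e-09). Fezf2 was at 57.3 and 87.9 against 32.9 and 36.8 CPM (1.32, SE 0.18, adjusted p = 2.33e-07). Zone 6, led by Myl4, Qrfpr and Lratd2, was higher in the same 3 members, by 1.35 for Fezf2, 1.02 for Pou3f1 and 1.01 for Etv1, while Bcl11b was called in neither zone.

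Bcl11b was higher in zone 2, led by Trh, Krt2 and Gpr101, at 124 and 138 CPM against 54.7 and 56.6 CPM (1.40, SE 0.15, edgeR adjusted p = 3.73e-11). There Tbr1 (48.8 and 46.5 against 163 and 126 CPM, -1.52, SE 0.16), Pou3f1 (-1.30) and Cux2 (-2.08, SE 0.34) were lower, and Fezf2 was at 37.2 and 31.8 CPM with no call (0.13, SE 0.23). In zone 5, led by Foxp2, Trbc2 and Ighm, Tle4 was at 152 and 132 against 42.0 and 41.9 CPM (1.83, SE 0.14, adjusted p = 1.86e-15) and Tbr1 at 321 and 217 against 129 and 105 CPM (1.27, SE 0.11, adjusted p = 8.06e-14). Both were higher, and Etv1, Cux1 and Cux2 were lower there. Zone 5 was also high in the oligodendrocyte markers Mog and Mobp, whose summed level of 679.5 and 821 CPM lay above the 63.1 to 393 CPM of the other zones, and their part in the difference was not tested.

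The upper-layer factors marked other zones. Cux2, a close relative of Cux1, was at 105 and 121 CPM in zone 3, led by Ccbe1, Otof and Stard8, against 27.2 and 45.3 CPM (2.03, SE 0.17, edgeR adjusted p = 1.19e-13). Zone 7, led by Rspo1, Endou and Scnn1a, was higher in Cux2 (55.6 and 108 CPM, 1.43, SE 0.22) and in Cux1 (131 and 86.8 CPM, 1.32, SE 0.17). Cux1 in zone 3 was at 91.4 and 88.7 CPM and fell just short of the fold limit (0.99, adjusted p = 2.08e-06). In zones 3 and 7 Fezf2, Bcl11b and Etv1 were all lower, by -1.70, -1.71 and -1.31 in zone 3 and -1.09, -1.21 and -1.02 in zone 7.

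Zone 8, led by Slc13a4, Ogn and Fmod, was higher in Cux2 (59.7 and 90.0 CPM, 1.32, SE 0.29) and lower in Fezf2 (-1.55, SE 0.44). Its summed astrocyte markers were at 477 and 545 CPM, above the 137 to 293 CPM of the other zones. Endothelial markers (143 and 183 CPM) and microglial markers (151 and 317 CPM) were also above every other zone, and their part in the difference was not tested. No member was called in zone 4 or in zone 9, which was led by the red-cell genes Alas2, Hbb-bt and Hba-a2. Several calls of zones rested on the setting: with DESeq2, those of Fezf2 in zones 7 and 8 and of Etv1 and Pou3f1 in zone 6 were lost. The plot of members by zone gives both sections.

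**Figure D4:**
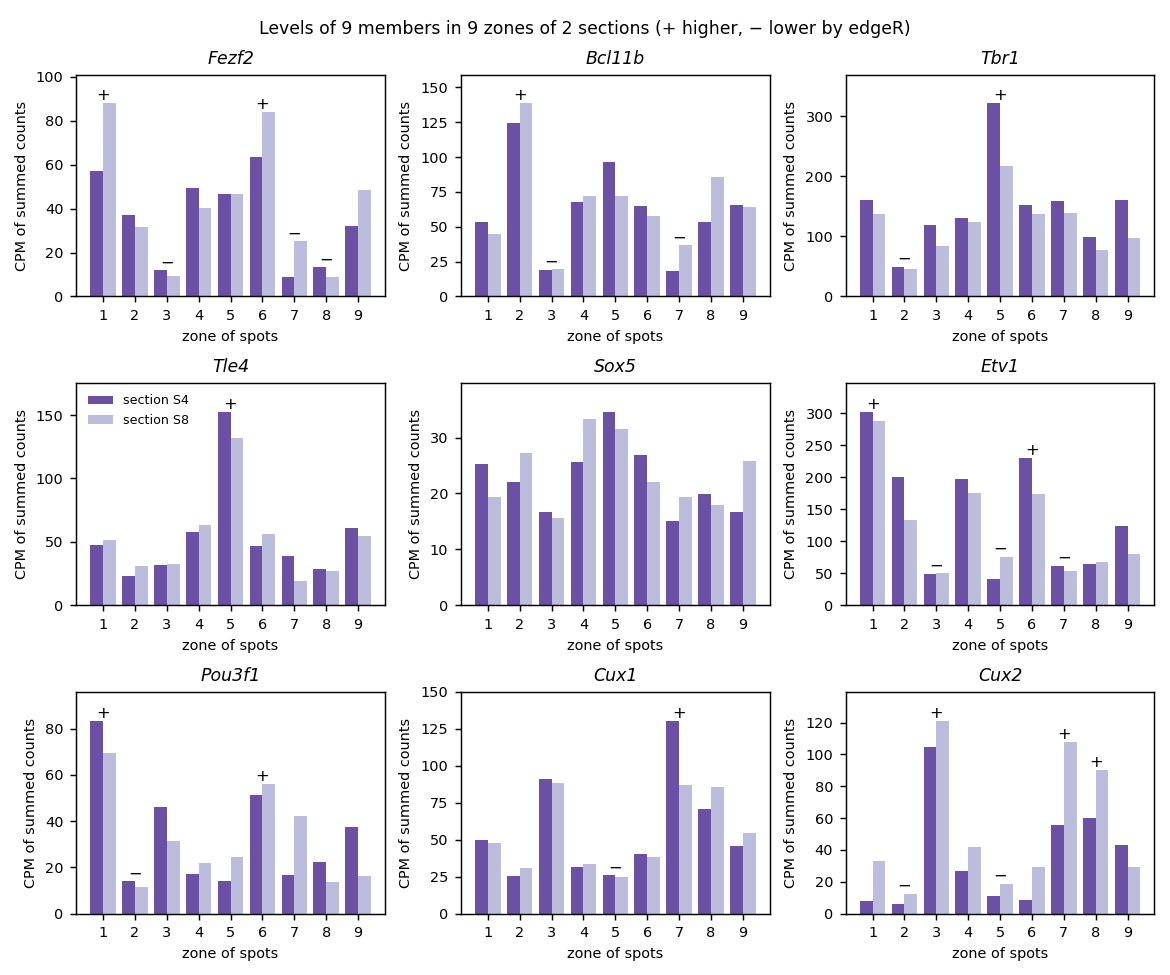
CPM of summed counts (vertical axis, linear, from 0) of 9 members in 9 zones of spots (horizontal axis) in sections S4 (dark) and S8 (light), with + and − where edgeR called a zone higher or lower. Etv1, Pou3f1 and Fezf2 share their + in zones 1 and 6, Tle4 and Tbr1 in zone 5, and Cux1 and Cux2 in zone 7.

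Of the 24 other regulators tested in zones, 14 were called in at least 1, among them Rorb, higher in zone 7 (161 against 40.0 CPM in the other zones). Of the 10 subcerebral genes tested, 9 were called in at least 1 zone. Of all genes tested in zones, 13% were called in at least 1. Both lists were written with results of these data known. Parm1 (147 against 54.4 CPM) and Chst8 were higher in zone 1 with Fezf2 and Etv1, and Crym (319 against 120.2 CPM), Crim1 and Npr3 in zone 2 with Bcl11b. Ephb1 was lower in zone 2. In zone 5, Ephb1, Igfbp4 and Pcp4 were higher and S100a10 was lower. Over the 18 sums of section and zone the gene most like Etv1 was Parm1 (r = 0.92), that most like Bcl11b was Efnb3 (0.88), that most like Pou3f1 was Sod2 (0.87) and that most like Cux2 was Dact2 (0.89). The r of Cux1 and Cux2 was 0.77, that of Fezf2 and Etv1 0.70, and that of Fezf2 and Bcl11b 0.50, a description over sums that share section and depth.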

How the data were processed

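Whole-number counts per gene and cell, and per gene and spot, were used as deposited. The submitters' processing notes name Seurat, Space Ranger and the builds NCBIM37 and mm10, with no role given. The aligner, and whether counts in cells are reads or molecules, are not given in the sources used here. Every cell and spot in the tables was used, and no doublet caller was run. Cells were clustered with scanpy 1.11.5 (10000 counts per cell, 2000 variable genes, 30 components, 15 neighbours, Leiden resolution 1) without the members, and spots likewise with genes centred within section. Counts were summed per animal and cluster (at least 5 cells), section and zone (at least 10 spots), or animal and level. Sums were tested with edgeR 4.0.16 (quasi-likelihood, TMM, low counts filtered) in R 4.3.3, with animal or section as a block for clusters and zones. DESeq2 1.42.0, other scaling, no filter, other blocks, other sums and left-out replicates were alternatives.

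The levels of an animal are paired because they come from the same mouse, and deviations of same-animal sums correlated by 0.037 to 0.256. A cluster was named where all markers of a class that the table held, at least 3, led it. A leading marker also had a count in at least 25% of the cluster's cells, and a marker could lead several clusters. The genes named are the members, list genes where called, and the 3 genes most like each member, of which a few are not reported here. The sum of Mog and Mobp was chosen after seeing values. The members, lists and markers were chosen with earlier results of these data known. The grouping of clusters 3 and 7, the likeness over zones and the rule for naming clusters were chosen after seeing values. Cell totals per sample limit the precision of low levels. The fits and the co-detection test were tested on simulated data.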

Additional observations from a re-analysis of the deposited data

Results flagged for a closer look

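Samples of an animal were compared for each member in animals 2 and 3, which had 4 samples each, so 14 groups were examined, and chance sets apart about 1 in 20 such groups. Fezf2 stood at 85.7 CPM in sample 13 of animal 2, below the 107, 109 and 109 CPM of the other samples, a gap of 0.917 of the whole range, past the 95% limit of Dixon's test for 4 samples. Bcl11b stood at 132 CPM in sample 15 of animal 3, above the 87.6, 94.5 and 95.01 CPM of the other samples, a gap of 0.834 of the range.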

How the results depend on the processing

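Of the 31 calls by cluster, 31 were also made by DESeq2 (34 in all) and 31 without the replicate block (33 in all). With sums per sample 4 clusters could be fitted and 11 calls were made, 9 of them shared. Leaving out an animal gave 21 to 28 calls. Of the 26 calls by zone, DESeq2 made 22 and the fit with no replicate block 21. Leaving out a section leaves no residual degrees of freedom and was not run. Between posterior and anterior cells, 2 members were called with DESeq2 and 2 with the animal as replicate block, against 0 without it. With cluster and animal as terms the differences were -0.25 for Fezf2 and -0.11 for Etv1, each smaller in size than its SE. Cluster 3, with posterior cells only, gave no comparison between levels there, and the cause was not tested. Of the 4 pairs called, 0 passed at 3 or more counts, 0 within dissection levels, and 0 to 0 when a sample or an animal was left out (adjusted p up to 0.363), where fewer samples allow no smaller p. Without thinning 6 pairs passed. The excess kept its sign in all of these, from 6.49 to 10.6 points for Fezf2 and Bcl11b and from -7.90 to -4.73 for Tbr1 and Etv1. Depth limits the spots, where Sox5 had at most 2 counts in any spot.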
